A study of Mus musculus with 23 samples.

Results

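Of 43 tested genes of the nuclear pore and of the receptors that carry cargo through it, 33 were called higher and 1, Kpna2, lower in intestinal stem cells (ISC) than in wild-type villus. Among all tested genes, 32.3% were called higher and 30.5% lower in that comparison. None of 42 tested was called between villus lacking Eed and wild-type villus. There, 7.90% of all tested genes were called higher and 3.46% lower in the villus lacking Eed. The set holds 45 of the 22517 named genes that both deposited tables list. They were taken by symbol: nucleoporins named Nup and a number, importin alpha genes (Kpna and a number), Kpnb1, and the importin, transportin and exportin genes named Ipo, Tnpo and Xpo. Nucleoporins make up 22 of the 45 and transport receptors 23. Pore genes that carry other names, such as Tpr or Pom121, were not taken and are described separately.

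The RNA came from the proximal part of the intestine of adult mice of mixed B6;129 background, with 3 libraries in each of 3 groups. ISC were Eed+/+ and carried Lgr5-EGFP-IRES-CREERT2, which puts GFP and an inducible Cre under the stem cell gene Lgr5, and were sorted from crypts for high GFP. Eed-null villus came from EedF/F mice with Villin-CRE, a Cre for the gut epithelium. Whether this Cre is also induced by tamoxifen is not stated here. Wild-type villus came from EedF/F mice without Cre, so its Eed alleles are floxed but intact. All 3 groups had been given 1 to 2 mg tamoxifen on 5 days. Crypts and villi were released with EDTA, and only ISC were then dissociated with TrypLE and sorted, whereas villus went straight into TRIzol.

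The tables hold 1 value per gene and group in RPKM, reads scaled by gene length and library size, so values of different genes can be compared within a group. They print no value per library, so no spread between libraries can be shown, the depth is unknown, and the authors' p and q carry the only measure of error. Called genes are those with a valid test and a q, the p-value adjusted over all genes tested, of 0.05 or less. Eed, a core subunit of the Polycomb complex PRC2 and the gene deleted, had 3.00 RPKM in Eed-null villus and 9.17 RPKM in wild-type villus (q = 6.29e-06 in the authors' deposited table). All 5 stem cell markers were called higher and all 6 enterocyte markers lower in ISC than in wild-type villus. In bulk RNA a lower value can come from fewer cells of a type or from less RNA of the gene per cell, and the 2 cannot be told apart.

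Nuclear pore complexes are the channels of the nuclear envelope. The Y complex and the inner ring form the scaffold, a membrane ring anchors it, FG nucleoporins fill the channel, and further subunits extend into the cytoplasm and, as a basket, into the nucleus. Importins pick up cargo in the cytoplasm and exportins in the nucleus, and the GTPase Ran sets the direction. Importin alpha binds the classical nuclear localization signal and is itself carried by importin beta, encoded by Kpnb1, whereas most other importins bind their cargo directly.

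Promoter sequences are shown for Nup210 and Ipo5, which had the largest ratios between ISC and wild-type villus, for Xpo5, the exportin with the largest, and for Kpna2, the one gene of the set called lower in ISC. RefSeq windows of 300 bases around the gene start on build GRCm38.p6 were found for 35 of the 45 genes, and the windows are written on the gene's own strand. Capitals mark matches to 5 motifs searched on both strands: E2F (TTTCCCGC, TTTGGCGC or TTTCGCGC), ETS (CCGGAAG), the E-box (CACGTG), NRF1 (GCATGCGC) and the CCAAT box (CCAAT). Nup210 is at chr6:91116777-91117076 on the minus strand and holds 1 E2F match. Ipo5 is at chr14:120910944-120911243 on the plus strand, the upstream one of 2 windows listed, and holds 2 CCAAT boxes. Xpo5 is at chr17:46202561-46202860 on the plus strand, where 4 overlapping NRF1 matches on both strands fall in 2 places. Kpna2 is at chr11:106999476-106999775 on the minus strand and holds 2 CCAAT boxes.
Nup210: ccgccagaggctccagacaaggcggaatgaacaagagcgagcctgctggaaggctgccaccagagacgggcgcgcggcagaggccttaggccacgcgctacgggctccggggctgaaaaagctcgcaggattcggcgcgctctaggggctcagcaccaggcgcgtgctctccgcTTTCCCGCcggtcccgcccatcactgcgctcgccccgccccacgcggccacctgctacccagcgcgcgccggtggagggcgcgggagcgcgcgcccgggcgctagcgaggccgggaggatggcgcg
Ipo5: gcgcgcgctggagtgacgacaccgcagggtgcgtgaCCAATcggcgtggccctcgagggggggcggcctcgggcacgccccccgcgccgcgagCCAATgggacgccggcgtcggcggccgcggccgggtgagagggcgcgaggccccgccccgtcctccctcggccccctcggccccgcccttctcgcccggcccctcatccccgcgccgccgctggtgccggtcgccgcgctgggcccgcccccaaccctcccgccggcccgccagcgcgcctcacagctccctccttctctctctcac
Xpo5: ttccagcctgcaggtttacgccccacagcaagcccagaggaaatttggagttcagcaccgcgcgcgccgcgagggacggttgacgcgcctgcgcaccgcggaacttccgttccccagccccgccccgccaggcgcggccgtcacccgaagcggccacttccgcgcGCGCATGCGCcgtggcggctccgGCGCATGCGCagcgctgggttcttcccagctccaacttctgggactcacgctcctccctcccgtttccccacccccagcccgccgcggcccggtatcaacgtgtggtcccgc
Kpna2: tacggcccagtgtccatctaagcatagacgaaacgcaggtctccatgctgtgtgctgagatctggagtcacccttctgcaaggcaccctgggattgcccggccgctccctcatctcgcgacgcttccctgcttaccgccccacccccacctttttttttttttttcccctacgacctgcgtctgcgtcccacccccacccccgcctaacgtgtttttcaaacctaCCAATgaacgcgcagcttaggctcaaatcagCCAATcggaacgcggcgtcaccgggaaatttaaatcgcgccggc

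Motif shares count a single window per gene, the most upstream one listed. The CCAAT box was the most frequent of these motifs, in 20 of the 35 windows (57.1%). It was in 39.1% of the 9582 windows of genes tested between ISC and wild-type villus, and in 38.0% of the 27025 windows of all genes. It was found in 14 of the 27 windows of genes called higher in ISC and in 4 of the 6 windows of genes tested but not called higher. The E2F letters, which belong to the factors that control S-phase genes, were in 2 of the 35 windows (5.71%), those of Nup210 and Ipo7, against 3.56% of the windows of tested genes. NRF1 letters were in 4 windows (11.4% against 5.39%), the E-box in 7 (20.0% against 10.2%) and ETS letters in 6 (17.1% against 18.1%). These matches describe letters in the windows and say nothing of binding.

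Between ISC and wild-type villus, 43 of the 45 genes were tested in the authors' deposited table. Of these, 33 were called higher in ISC (76.7%), against 32.3% of all 13007 tested genes, and 1 was called lower (2.33%), against 30.5% of all tested genes. A difference of at least 2-fold as well was found for 26 genes higher in ISC (60.5%, against 25.7% of all tested genes) and for 0 lower, against 23.4%. The median ratio was 2.65-fold (log2 1.40), whereas the median over all tested genes was 1.07-fold (log2 0.093). The set thus stood on the ISC side of the whole distribution of ratios, with 38 of 43 genes above 0 on the log2 scale (88.4%, against 52.3% of all tested genes).

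The lowest level in the higher group of any tested gene was 0.246 RPKM, an observed value and not a known limit for testing. Nup210l and Nup62-il4i1 lay above it in ISC only. Among the 41 genes that reached 1 RPKM in both groups, 32 were called higher in ISC (78.0%) and 1 lower (2.44%), against 30.0% and 33.0% of the 9818 such genes tested. Nup62cl and Kpna7 were not tested. In the authors' deposited table, Nup62cl was listed at 0 in ISC and at 0.0414 RPKM in wild-type villus, and Kpna7, an importin alpha of the mouse oocyte and early embryo, was listed at 0.00251 RPKM in ISC and at 0 in wild-type villus.

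**Figure D1:**
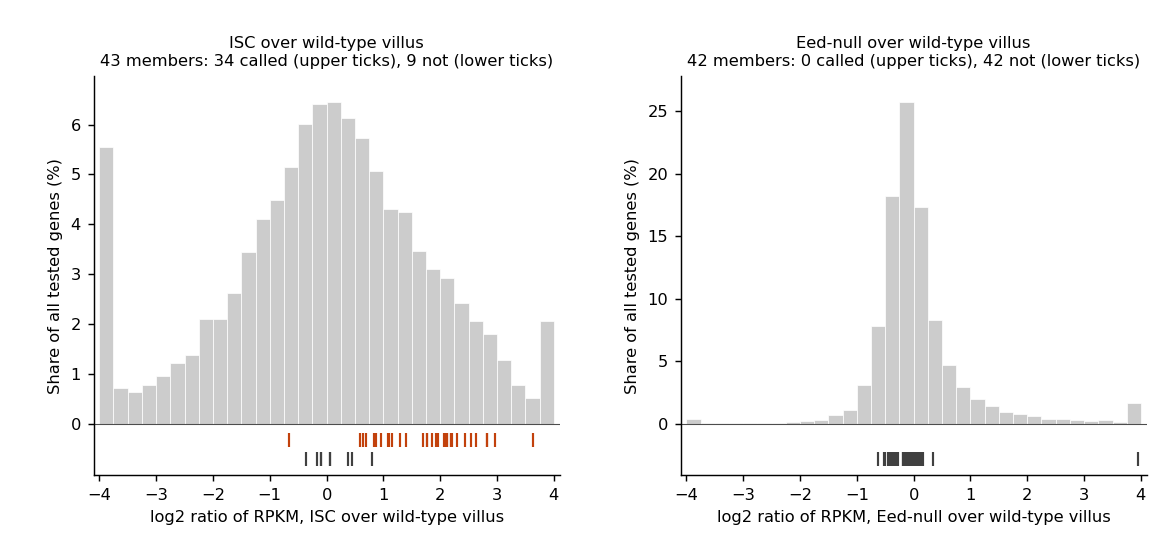
Grey bars give the share of all tested genes (percent) in each interval of the log2 ratio of RPKM, with the end bars holding all genes beyond them, and ticks under the bars give the nucleoporin and transport receptor genes, called above and not called below. On the left, for ISC over wild-type villus, 33 of the 34 called genes lie right of 0; on the right, for Eed-null over wild-type villus, no gene is called and all but 2 lie within 1.5-fold.

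Markers of other properties of the 2 populations moved with the same comparison. Each of 12 proliferation genes was called higher in ISC, with summed levels of 638 RPKM in ISC and 144 RPKM in wild-type villus. All 9 genes of the response to dissociation, such as Fos and Egr1, were also called higher, with sums of 1073 RPKM in ISC and 227 RPKM in wild-type villus. The 4 leukocyte genes were called lower, with sums of 16.2 RPKM in ISC and 80.5 RPKM in wild-type villus, and so were both tuft cell genes, with sums of 2.82 RPKM in ISC and 12.7 RPKM in wild-type villus. Both enteroendocrine genes were called higher, with sums of 153 RPKM in ISC and 78.7 RPKM in wild-type villus. Of the goblet cell genes Tff3 was called lower and Muc2 was not called, and of the Paneth cell genes Mmp7 was called higher (321 RPKM in ISC and 56.3 RPKM in wild-type villus). The other Paneth cell gene, Lyz1, had no valid test. It was listed at 0 in ISC and at 1021 RPKM in wild-type villus, with the status HIDATA in place of a valid test. The 0 is therefore not read as absence of Lyz1 RNA, and these values are not compared. Of 3 mesenchymal genes, Vim was called higher (7.72 RPKM in ISC and 1.36 RPKM in wild-type villus), and Col1a1 and Col1a2 were near 0 and not tested. The endothelial genes were near 0 and not tested, with sums of 0.132 RPKM in ISC and 0.183 RPKM in wild-type villus. These values come from the authors' deposited table, and the part of cell division, handling or other cells in the ratios of pore genes was not tested.

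The set holds 6 genes of the Y complex. All 6 were called higher in ISC, against 32.3% of all tested genes, with a median ratio of 4.94-fold (log2 2.30, range 1.16 to 2.83). Nup43 had 13.4 RPKM in ISC and 1.89 RPKM in wild-type villus (7.12-fold, q = 1.2e-13 in the authors' deposited table). Nup85 had 30.8 RPKM in ISC and 4.37 RPKM in wild-type villus (7.05-fold, q listed as 0 in the authors' deposited table). Nup133 had 8.21 RPKM in ISC and 1.41 RPKM in wild-type villus (5.82-fold, q listed as 0 in the authors' deposited table). The smallest ratio of the 6 was that of Nup107, at 10.6 RPKM in ISC and 4.75 RPKM in wild-type villus (2.23-fold, q = 2.93e-05 in the authors' deposited table). Nup37 and Nup160 lay between, at 4.19-fold and 3.87-fold in the authors' deposited table. Seh1l, Ahctf1 and Sec13, Y complex subunits that carry other names, are not among them. Of the 6, the highest gene was 3.75-fold above the lowest in ISC and 3.36-fold in wild-type villus.

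The inner ring has subunits that link the scaffold to the channel and the membrane. All 5 of its genes in the set were likewise called higher in ISC, against 32.3% of all tested genes, with a median ratio of 4.29-fold. Nup205 had the highest level, 19.7 RPKM in ISC and 5.46 RPKM in wild-type villus (3.61-fold, q = 2.53e-14 in the authors' deposited table). Nup155 had 8.38 RPKM in ISC and 1.82 RPKM in wild-type villus (4.61-fold, q listed as 0 in the authors' deposited table). Nup93 and Nup188 differed by a similar factor, 4.35-fold and 4.29-fold in the authors' deposited table. Nup35 differed least, with 4.98 RPKM in ISC and 2.77 RPKM in wild-type villus (1.80-fold, q = 0.0147 in the authors' deposited table).

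Nup210, a membrane-spanning pore protein known in mouse myoblasts for its part in differentiation, had the largest ratio of the set. It had 17.9 RPKM in ISC and 1.44 RPKM in wild-type villus (12.4-fold, log2 3.63, q listed as 0 in the authors' deposited table). That ratio ranked 301 from the top among all tested genes, with genes listed at 0 in wild-type villus counted above it. The gene lies on chromosome 6, between 90963060 and 91066820 on build mm9. The related gene Nup210l was called higher as well (3.41-fold, q = 0.00524 in the authors' deposited table), but at levels of 0.324 RPKM in ISC and 0.0950 RPKM in wild-type villus.

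Channel nucleoporins carry the FG repeats that receptors bind. Nup62 was the highest nucleoporin gene in ISC, with 35.0 RPKM in ISC and 8.06 RPKM in wild-type villus (4.34-fold, q = 3.26e-10 in the authors' deposited table). Its partner Nup54 had 17.0 RPKM in ISC and 4.44 RPKM in wild-type villus (3.82-fold, q = 1.27e-11 in the authors' deposited table). Nup98, whose transcript also encodes the Y complex subunit Nup96, differed less, with 12.7 RPKM in ISC and 6.97 RPKM in wild-type villus (1.82-fold, q = 0.000657 in the authors' deposited table). Nup62 shares its locus entry with the readthrough gene Nup62-il4i1, and how reads were divided between them is not known; Nup62-il4i1 was listed at 0.419 RPKM in ISC and 0.241 RPKM in wild-type villus (q = 0.787 in the authors' deposited table).

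On the cytoplasmic face, where exported complexes are taken apart, Nup214 had 8.11 RPKM in ISC and 2.39 RPKM in wild-type villus (3.40-fold, q = 3.32e-12 in the authors' deposited table). Its partner Nup88 had 28.9 RPKM in ISC and 14.9 RPKM in wild-type villus (1.94-fold, q = 0.00519 in the authors' deposited table), and shares its locus entry with another gene. The 2 basket genes differed from each other. Nup153 had 15.8 RPKM in ISC and 7.40 RPKM in wild-type villus (2.14-fold, q = 5.3e-06 in the authors' deposited table), whereas Nup50, a cofactor of import that also dissociates cargo from importin alpha, had 16.9 RPKM in ISC and 16.1 RPKM in wild-type villus (1.05-fold, q = 0.818 in the authors' deposited table). Apart from Nup62-il4i1, Nup50 was the only one of the 21 tested nucleoporins not called.

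**Figure D2:**
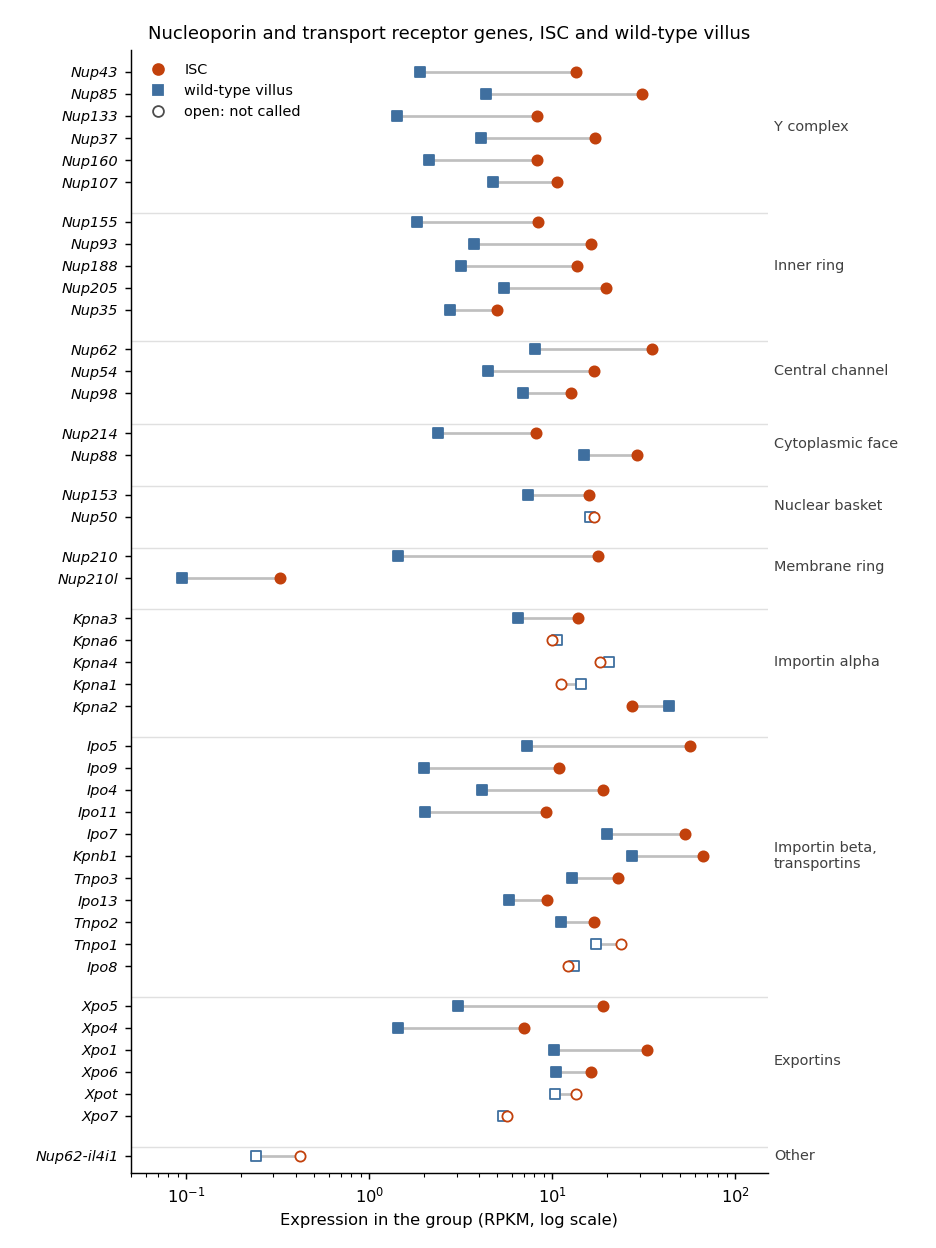
Each row is a tested gene, with its RPKM (log scale) in ISC as a circle and in wild-type villus as a square, grouped by place in the pore or kind of receptor; open symbols were not called. Circles lie right of squares in every pore class, while among importin alpha genes only Kpna3 lies clearly to the right and Kpna2, at 27.4 RPKM in ISC and 43.3 RPKM in wild-type villus, lies to the left.

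Transport receptors had smaller ratios than nucleoporins: their median log2 ratio was 0.76 over 22 tested genes, against 1.93 over 21 tested nucleoporins, and 14 receptors were called higher and 1 lower in ISC, against 19 nucleoporins higher and 0 lower. Of all tested genes, 32.3% were called higher and 30.5% lower in ISC. The contrast between the 2 kinds of gene is a description and was not tested. Ratios of receptors ran from -0.66 to 2.96 on the log2 scale, and those of nucleoporins from 0.065 to 3.63.

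Of the 5 tested importin alpha genes, 4 lay below 0 on the log2 scale and Kpna3 lay above it, and Kpna2 had the lowest ratio of the receptors. Kpna2 had 27.4 RPKM in ISC and 43.3 RPKM in wild-type villus, a log2 ratio of -0.66 or a 1.58-fold higher level in wild-type villus (q = 0.00645 in the authors' deposited table). Of the 43 tested genes of the set, only Kpna2 was called lower in ISC; with at least 2-fold required as well, none was. The gene lies on chromosome 11, between 106849942 and 106860839 on build mm9. The GRCm38 gene table also lists a pseudogene of Kpna2, and reads shared with it could be counted for either, so its level is uncertain to that extent.

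Kpna3, of another importin alpha subfamily, was called higher, with 13.8 RPKM in ISC and 6.53 RPKM in wild-type villus (2.11-fold, q = 1.8e-05 in the authors' deposited table). Its closest relative Kpna4 was not called, with 18.2 RPKM in ISC and 20.4 RPKM in wild-type villus (q = 0.539 in the authors' deposited table). Nor were Kpna1, with 11.2 RPKM in ISC and 14.4 RPKM in wild-type villus (q = 0.166), and Kpna6, with 9.999 RPKM in ISC and 10.7 RPKM in wild-type villus (q = 0.734), in the authors' deposited table. The summed importin alpha level was 80.6 RPKM in ISC and 95.2 RPKM in wild-type villus. Kpna2 made up 34.0% of that sum in ISC and 45.4% in wild-type villus, and Kpna3 17.1% in ISC and 6.86% in wild-type villus, so the shares were closer together in ISC.

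**Figure D3:**
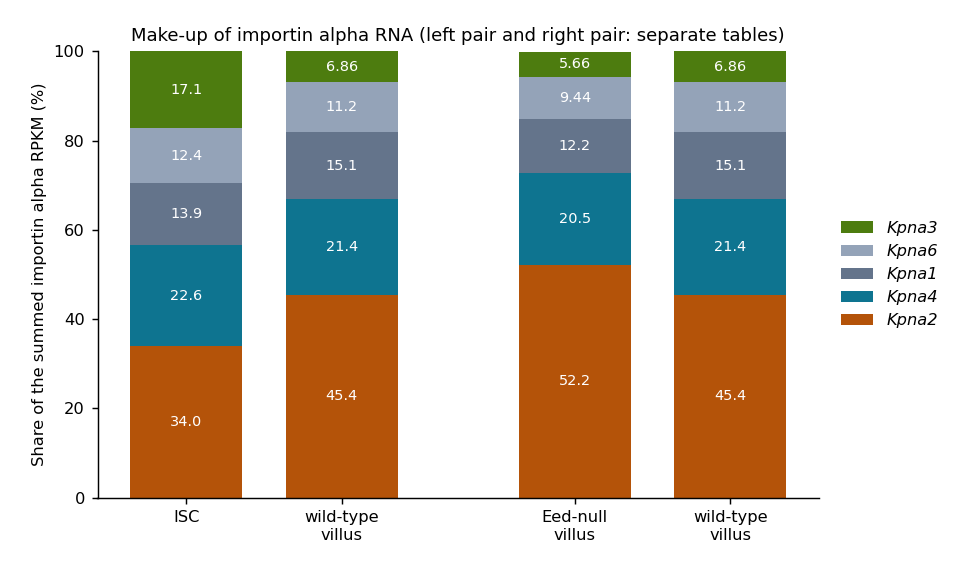
Stacked bars give the share of each importin alpha gene in the summed importin alpha RPKM of a group (percent), with ISC beside wild-type villus from one table and Eed-null villus beside wild-type villus from the other. Kpna2 holds 34.0% in ISC against 45.4% in wild-type villus, and 52.2% in Eed-null villus against 45.4% in wild-type villus; Kpna7 is too low to be drawn.

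Of the 11 importin beta family and transportin genes, 9 were called higher in ISC and 0 lower, against 32.3% and 30.5% of all tested genes. Kpnb1, the carrier of importin alpha, was the highest gene of the whole set in ISC, with 66.8 RPKM in ISC and 27.4 RPKM in wild-type villus (2.44-fold, q = 9.89e-07 in the authors' deposited table). In wild-type villus the highest gene was Kpna2, which took the 8th place in ISC. The ratio of Kpnb1 to Kpna2 was therefore 2.44 in ISC and 0.632 in wild-type villus, computed from the authors' deposited table.

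Ipo5, an importin of ribosomal proteins and histones, had the second largest ratio of the set. It had 56.7 RPKM in ISC and 7.29 RPKM in wild-type villus (7.78-fold, q listed as 0 in the authors' deposited table), and lies on chromosome 14, between 121310415 and 121347266 on build mm9. Ipo9, an importin of histones H2A and H2B and of actin, had 10.8 RPKM in ISC and 2.00 RPKM in wild-type villus (5.43-fold, q listed as 0 in the authors' deposited table). Ipo4, an importin of histones H3 and H4, had 19.0 RPKM in ISC and 4.16 RPKM in wild-type villus (4.58-fold, q listed as 0 in the authors' deposited table). These 3 ratios were the largest of the class. Ipo11, which imports ubiquitin-conjugating enzymes, followed with 9.22 RPKM in ISC and 2.02 RPKM in wild-type villus (4.56-fold, q = 4.75e-14 in the authors' deposited table). Ipo7, which carries ribosomal proteins and, together with Kpnb1, histone H1, had 52.9 RPKM in ISC and 20.0 RPKM in wild-type villus (2.65-fold, q = 5.71e-09 in the authors' deposited table), and shares its locus entry with another gene.

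The rest of the class differed by less than 2-fold. Tnpo3, the importin of SR splicing factors, was called higher at 22.8 RPKM in ISC and 12.9 RPKM in wild-type villus (1.78-fold, q = 0.000622 in the authors' deposited table). Ipo13, which works in both directions, and Tnpo2, a carrier of hnRNP proteins, were called at 1.62-fold and 1.51-fold in the authors' deposited table. Tnpo1, the close relative of Tnpo2, was not called, with 23.8 RPKM in ISC and 17.4 RPKM in wild-type villus (1.37-fold, q = 0.0787 in the authors' deposited table). Ipo8, the relative of Ipo7, was not called either, with 12.3 RPKM in ISC and 13.1 RPKM in wild-type villus (q = 0.733 in the authors' deposited table). Some pairs of close relatives therefore had different calls (Ipo7 and Ipo8, Tnpo2 and Tnpo1, Kpna3 and Kpna4), and the difference within each pair was not tested. Tnpo2 and Tnpo1 lay on either side of the limit, at q = 0.0194 and q = 0.0787 in the authors' deposited table. Other relatives shared a call, such as Nup210 and Nup210l, both called higher.

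Among the 6 exportins, 4 were called higher in ISC and 0 lower, against 32.3% and 30.5% of all tested genes. Xpo5, which exports precursors of microRNAs, had 18.8 RPKM in ISC and 3.06 RPKM in wild-type villus (6.16-fold, q listed as 0 in the authors' deposited table). It shares its locus entry with another gene and lies on chromosome 17, between 46339803 and 46379248 on build mm9. Xpo4, an exporter of the translation factor eIF5A, had 7.00 RPKM in ISC and 1.43 RPKM in wild-type villus (4.88-fold, q = 3.03e-12 in the authors' deposited table). Xpo1, the general exporter of proteins with leucine-rich signals, had the highest level of the class, 33.0 RPKM in ISC and 10.2 RPKM in wild-type villus (3.25-fold, q = 3.65e-10 in the authors' deposited table). Xpo6, the exporter of actin, differed by 1.55-fold (q = 0.0101 in the authors' deposited table). The remaining 2 were not called. The tRNA exporter Xpot had 13.5 RPKM in ISC and 10.4 RPKM in wild-type villus (q = 0.133 in the authors' deposited table), and Xpo7 had 5.67 RPKM in ISC and 5.41 RPKM in wild-type villus (q = 0.809 in the authors' deposited table).

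The other comparison asks what the deletion of Eed, a core subunit of PRC2, does to villus cells, and it shares its 3 wild-type villus libraries with the first. Eed RNA in Eed-null villus was at 0.328 of its wild-type villus level, and the activity of PRC2 was not examined here. Of the 45 genes, 42 were tested and 0 were called, against 7.90% of all 12525 tested genes called higher and 3.46% called lower in Eed-null villus. Among the 41 genes that reached 1 RPKM in both groups, 0 were called, against 4.64% higher and 3.87% lower of the 10003 such genes tested. At an unadjusted p under 0.05 there were 3 of 42 (7.14%), against 21.1% of all tested genes. Ratios were small: 40 of the 42 genes (95.2%) were within 1.5-fold of wild-type villus, against 75.0% of all tested genes.

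The 3 genes with an unadjusted p under 0.05 lay in both directions. Ipo8 had 7.31 RPKM in Eed-null villus and 11.3 RPKM in wild-type villus (log2 -0.62, p = 0.00767, q = 0.0626 in the authors' deposited table). Xpo7 had 3.25 RPKM in Eed-null villus and 4.66 RPKM in wild-type villus (log2 -0.52, p = 0.0238, q = 0.146 in the authors' deposited table). Nup62cl, an X-linked relative of Nup62, had 0.551 RPKM in Eed-null villus and 0.0356 RPKM in wild-type villus (log2 3.95, p = 0.0110, q = 0.0820 in the authors' deposited table). It is the only gene of the 42 below 1 RPKM in both groups. The lowest level in the higher group of any gene tested here was 0.351 RPKM, and Nup62cl lay above it in Eed-null villus only.

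Nup210 and Ipo5, which had the largest ratios between ISC and wild-type villus, had close levels in Eed-null and wild-type villus. Nup210 had 1.19 RPKM in Eed-null villus and 1.24 RPKM in wild-type villus (log2 -0.07, q = 0.961 in the authors' deposited table). Ipo5 had 6.001 RPKM in Eed-null villus and 6.28 RPKM in wild-type villus (log2 -0.06, q = 0.949 in the authors' deposited table). Kpnb1 had 21.8 RPKM in Eed-null villus and 23.5 RPKM in wild-type villus (log2 -0.11, q = 0.873 in the authors' deposited table). The same held for Kpna2, at 40.8 RPKM in Eed-null villus and 37.2 RPKM in wild-type villus (log2 0.13, q = 0.841 in the authors' deposited table), which stayed the highest gene of the set in both. Kpna2 made up 52.2% of the importin alpha sum in Eed-null villus and 45.4% in wild-type villus, and the ratio of Kpnb1 to Kpna2 was 0.533 in Eed-null villus and 0.632 in wild-type villus, computed from the authors' deposited table. The largest values among the remaining genes that were above 0 or below it on the log2 scale were those of Nup98, at 7.57 RPKM in Eed-null villus and 5.99 RPKM in wild-type villus (log2 0.34, q = 0.501 in the authors' deposited table), and of Nup214, at 1.46 RPKM in Eed-null villus and 2.05 RPKM in wild-type villus (log2 -0.50, q = 0.301 in the authors' deposited table).

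Most of these small ratios lay on one side, with 34 of the 42 genes (81.0%) lower in Eed-null villus, against 57.7% of all tested genes. Among genes that reached 1 RPKM in both groups, 34 of 41 were lower, against 6238 of the 10003 such genes tested. The median log2 ratio was -0.15 over the 42 genes and -0.076 over all tested genes. The table as a whole was shifted the same way: the 10048 genes that reached 1 RPKM in both groups had a median of -0.10. Relative to that shift, 24 of 42 (57.1%) were lower in Eed-null villus, against 47.0% of all tested genes, and the median was -0.041. By definition, that shift splits the genes that reached 1 RPKM in both groups evenly. Several marker lists lay below 0 as well: all 12 proliferation genes (median -0.46), all 6 enterocyte genes (median -0.45, Lct called lower) and 3 of 4 leukocyte genes (median -0.63, none called). Of the proliferation genes Mki67 alone was called lower, at 3.85 RPKM in Eed-null villus and 6.18 RPKM in wild-type villus (q = 0.0382 in the authors' deposited table). Of the 5 stem cell genes 3 were above 0, and Olfm4 was called lower. Muc2 of the 2 goblet cell genes and Egr1 and Nr4a1 of the 9 dissociation genes were called higher, and no enteroendocrine, tuft, Paneth or mesenchymal gene was called. The part of cell division or of the make-up of cells in the ratios of pore genes was not tested.

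**Figure D4:**
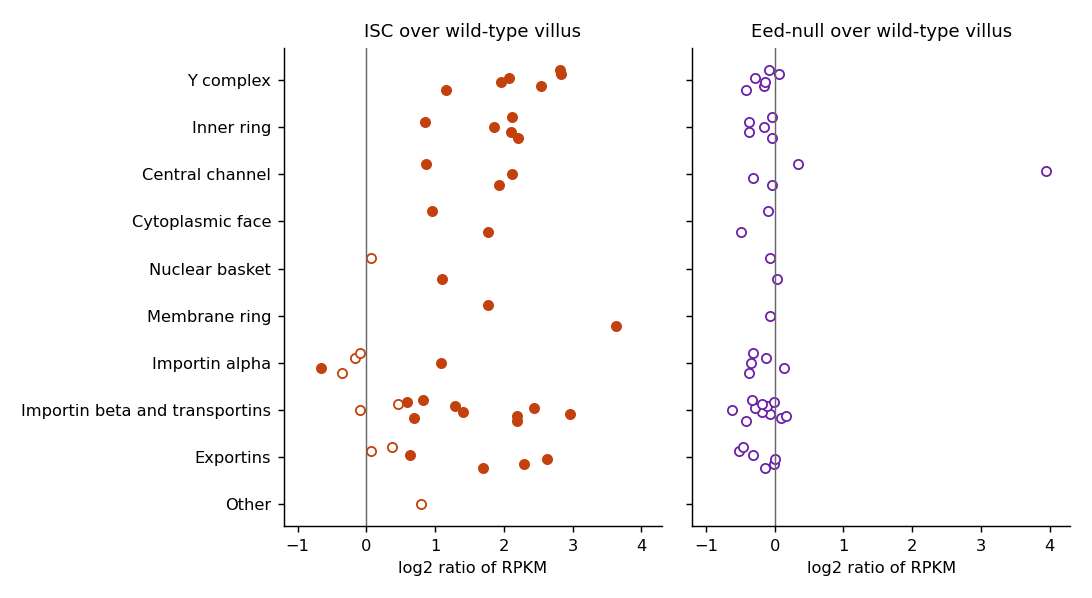
Each point is a tested gene, placed by its log2 ratio of RPKM within its class, for ISC over wild-type villus on the left and Eed-null over wild-type villus on the right; filled points were called. On the left the classes of the pore lie right of 0 and importin alpha around 0; on the right all points are open and, except for Nup62cl at 3.95, lie within -0.62 and 0.34.

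Other genes of the same machinery, listed by function and not part of the set, were also mostly higher in ISC: 26 of 33 tested were called higher and 1 lower, against 32.3% and 30.5% of all tested genes. All 8 genes of the Ran cycle were called higher, with a median log2 ratio of 1.86. Ran had 137 RPKM in ISC and 36.5 RPKM in wild-type villus (3.75-fold, q = 4.06e-14 in the authors' deposited table). Cse1l, the exporter that returns importin alpha to the cytoplasm, had 32.2 RPKM in ISC and 7.05 RPKM in wild-type villus (4.57-fold, q listed as 0 in the authors' deposited table). Of the 5 tested importin alpha genes, by contrast, Kpna3 was called higher, Kpna2 lower and 3 were not called. Of 11 further pore subunits, 10 were called higher, among them the membrane ring gene Ndc1, listed under its older name Tmem48, with 11.4 RPKM in ISC and 2.36 RPKM in wild-type villus (4.84-fold, q = 5.53e-13 in the authors' deposited table). Among the further Y complex subunits, Seh1l (log2 0.95) and Ahctf1 (log2 1.05) were called higher with smaller ratios than the 6 of the set. Sec13, which belongs both to the Y complex and to the COPII coat of secretory vesicles, was called lower, with 71.6 RPKM in ISC and 178 RPKM in wild-type villus (log2 -1.32, q = 2.43e-08 in the authors' deposited table). Its level in wild-type villus was above that of every Y complex gene of the set.

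Genes of mRNA export were called higher in 8 of 14 cases and lower in 0, against 32.3% and 30.5% of all tested genes. The adaptor Alyref had 54.1 RPKM in ISC and 15.8 RPKM in wild-type villus (3.41-fold, q = 2.02e-11 in the authors' deposited table). Nxf1, the mRNA export receptor itself, was not called, with 38.8 RPKM in ISC and 28.5 RPKM in wild-type villus (q = 0.0742 in the authors' deposited table).

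In Eed-null villus 31 of these 33 genes were not called, 1 was called higher and 1 lower, against 7.90% higher and 3.46% lower of all tested genes. Aaas, the pore subunit aladin, was called higher, with 16.8 RPKM in Eed-null villus and 3.37 RPKM in wild-type villus (4.99-fold, q = 1.59e-12 in the authors' deposited table), and stood alone among the 11 further pore subunits. In ISC it had 11.5 RPKM, against 3.91 RPKM in wild-type villus (2.93-fold, q = 1.58e-06 in the authors' deposited table of that comparison). Thoc7, of the THO complex of mRNA export, was called lower, with 52.3 RPKM in Eed-null villus and 95.2 RPKM in wild-type villus (log2 -0.86, q = 0.00359 in the authors' deposited table). None of the 8 Ran cycle genes was called, and all 8 were below 0 on the log2 scale.

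**Figure D5:**
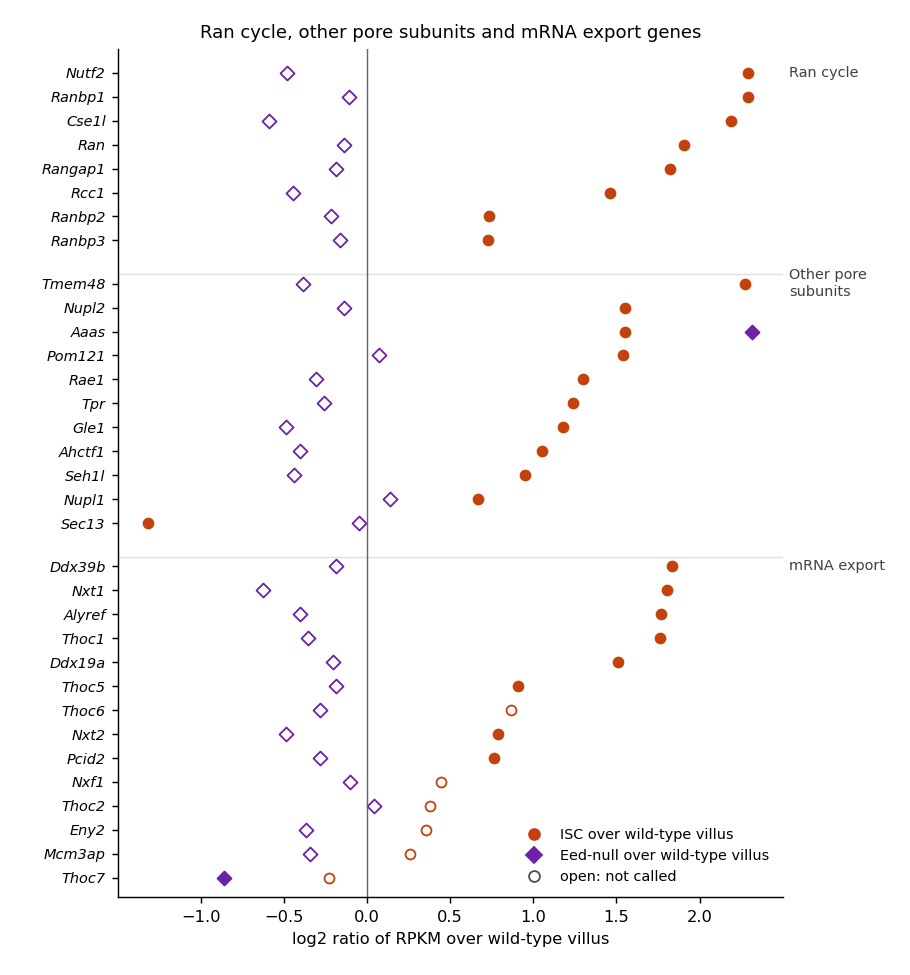
Each row is a tested gene of the Ran cycle, of further pore subunits or of mRNA export, with its log2 ratio of RPKM for ISC over wild-type villus as a circle and for Eed-null over wild-type villus as a diamond; open symbols were not called. Circles lie mostly right of 0 with Sec13 at -1.32 as the one called lower, and the filled diamonds are Aaas at 2.32 and Thoc7 at -0.86.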

How the data were processed

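RNA libraries (TruSeq V2, which do not mark strand; 75 bp single-end reads) of 9 samples were summarised by the authors into 2 tables with 1 value per gene and group. Per the file headers the first table gives RPKM; the second names no unit, and the deposited values were taken as RPKM because its wild-type villus values equal those of the first divided by 1.16193 (1.16192 to 1.16194 across 10353 genes). Each table thus has its own scaling, and comparisons stay within one. The submitters' processing notes name Bowtie, TopHat2 2.0.6, Cufflinks 2.0.1, Cuffdiff and build mm9 without roles. No gene annotation is named in the sources used here, nor the start convention of the coordinates. Each p-value and q-value is the authors', per the file headers; no model was fitted here, because the tables give no value per library. The labels call replicates biological and say no more of their origin.

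Ratios are ratios of deposited RPKM, with no pseudocount; the deposited fold column was not used. Calls need the status OK and a q at or below 0.05, and percentages for all genes use the 13007 and 12525 genes tested. A GRCm38 gene table lists 44 of the 45 symbols as current, and 5 share a locus entry with another gene. Counts, medians and motif matches were computed with Python 3.11.15, pandas 2.3.3 and numpy 2.4.6, and the calling code was tested on simulated data. Named in full are, in each comparison, the 10 called genes with the largest absolute log2 ratio, those called in the rarer direction, the highest gene of each class and those listed at 0; other genes of the set are named for their roles. The genes, classes and lists were chosen with earlier results of these data known. Alternatives were a q of 0.01, a 2-fold minimum, pseudocounts of 0.1 and 1 RPKM, a minimum of 1 RPKM, a q recomputed over genes above it, no shared locus entries, and centring on the median of genes that reach 1 RPKM in both groups. The 14 chromatin libraries were not analysed here.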

Additional observations from a re-analysis of the deposited data

How the results depend on the processing

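Centring cannot change calls made by q, and stricter limits cannot raise a count of 0, so the counts between Eed-null and wild-type villus could move only when q was recomputed, where they stayed at 0. With at least 2-fold required, 0 genes of the set were called lower in ISC than in wild-type villus, against 1 without it, since Kpna2 differed by 1.58-fold. With ratios centred on the median of genes that reach 1 RPKM in both groups, the median log2 ratio between Eed-null and wild-type villus was -0.041, against -0.15 uncentred. The number called higher in ISC ranged from 26 to 33, while the share of all tested genes called higher ranged from 25.7% to 32.3%. The median log2 ratio of the set ranged from 1.26 to 1.43. Of 56 alternatives for single genes, 53 left the log2 ratio on the same side of 0, though its size could change. With a pseudocount of 1 RPKM, that of Nup62-il4i1 between ISC and wild-type villus was 0.193, against 0.797 without. Nup62cl was not among the genes tried. With ratios centred as above, Nup88, Nup50 and Nup210 lay above 0 between Eed-null and wild-type villus, where none of them was called. No paired analysis was possible because the tables hold 1 value per group, and for the same reason no library could be left out. The depth is unknown, so what it limits cannot be stated.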

Other observations

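The regulators of Ran were called higher in ISC at unequal ratios. Ranbp1, which helps to release Ran from receptors, had 149 RPKM in ISC and 30.4 RPKM in wild-type villus (4.89-fold, q listed as 0 in the authors' deposited table). Rangap1, which activates hydrolysis of GTP by Ran in the cytoplasm, had 51.7 RPKM in ISC and 14.6 RPKM in wild-type villus (3.54-fold, q = 1.31e-13 in the authors' deposited table). Rcc1, the exchange factor that loads Ran with GTP on chromatin, had 27.6 RPKM in ISC and 10.004 RPKM in wild-type villus (2.76-fold, q = 3.45e-07 in the authors' deposited table). Ranbp2, the large nucleoporin of the cytoplasmic filaments, had 20.02 RPKM in ISC and 12.1 RPKM in wild-type villus (1.66-fold, q = 0.00306 in the authors' deposited table). In Eed-null villus the 4 genes lay between -0.45 and -0.11 on the log2 scale relative to wild-type villus, and none was called.

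In mRNA export, the helicase Ddx39b had 139 RPKM in ISC and 38.8 RPKM in wild-type villus (3.57-fold, q = 6.11e-14 in the authors' deposited table). Thoc7, the gene of this group called lower in Eed-null villus, had 94.2 RPKM in ISC and 111 RPKM in wild-type villus (q = 0.377 in the authors' deposited table). In the authors' deposited table, Nup210l, not tested between Eed-null and wild-type villus, was listed at 0.214 RPKM in Eed-null villus and 0.0818 RPKM in wild-type villus.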
